A study of Mus musculus with 16 samples.

Results

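The comparison was between CD40-treated mice that carried B2m-null B16 melanomas and CD40-treated mice that carried control B16 melanomas. Its members were all cell barcodes of 4 lanes, 2 per tumour genotype, with at least 200 detected genes and at most 10% of their UMIs (unique molecular identifiers, each a counted mRNA molecule) from mitochondrial genes. These were 49124 of the 99357 barcodes that passed the same limits over all lanes, with 26490 from control tumours and 22634 from B2m-null tumours. C57BL/6J mice received 1000000 cells of the Bro4.1 B16 line under the skin, either B2m-null or control, and 100 µg of a CD40 agonist antibody into the peritoneum on days 6, 9 and 12. Tumours were taken on day 14, their CD45-positive cells were selected on magnetic beads, and droplet libraries were made from the 3' ends of mRNA. The isotype groups, which carried the same tumours (5 mice with control and 5 with B2m-null cells) and got rat IgG2a in place of the agonist, enter below as a reference. The sample labels attach the genotype to the animal, but by the design it is the implanted cells that lost B2m, and hosts of all groups are taken as B2m wild type. The sources used here do not say whether the B2m-null line is 1 clone, nor how old the mice were or of which sex.

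Each mouse was marked with a hashtag antibody before pooling, and hashtags assigned 41105 of the cells to 6 mice. The labels list 3 hashtags for every lane, while the matrices of the 4 CD40 lanes hold 2 each, and each of these was taken as 1 mouse. Whether cells of a further mouse are among the barcodes without a mouse was not tested. Control mice 1 and 2 came from 1 pool that was run on 2 lanes as a technical replicate, and their cells were summed over these lanes. B2m-null mice 1 and 2 came from a first pool and B2m-null mice 3 and 4 from another, each on its own lane. The genotype comparison under CD40 therefore rests on 2 mice of 1 pool against 4 mice of 2 pools, and whatever set the control pool apart cannot be told apart from the tumour genotype.

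B2m codes for beta-2 microglobulin, the invariant chain of MHC class I molecules, without which the heavy chains do not reach the cell surface in stable form. Tumour cells that lack it cannot show peptides to CD8 T cells, while the absence of class I removes an inhibitory signal for natural killer (NK) cells. CD40 is a receptor on dendritic cells, macrophages and B cells. Its ligand on activated CD4 T cells, or an agonist antibody, raises costimulatory molecules and cytokines in these cells and so licenses them to prime T cells.

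The 6 mice gave 2399 to 17634 cells each, and 9.37 to 70.5 UMIs in units of 1000000. Kept barcodes had a median of 2310 and 1792 UMIs on the control lanes and of 3226 and 4387 on the B2m-null lanes. Hashtags left 2.99% and 5.54% of the barcodes of the control lanes without a mouse, against 25.5% and 2.11% on the B2m-null lanes. Any 2 of the 4 lanes shared 33 to 55 cell barcodes, at most 0.427% of a lane. Cells were clustered, and marker genes named 12 haematopoietic classes, with the unnamed clusters counted as 1 more class, beside melanoma-like, fibroblast-like and endothelial-like cells. Of the sets with at least 20 cells in every CD40-treated mouse, 6 were tested: monocytes and macrophages joined, CD8 T, conventional CD4 T, regulatory T and NK cells, and conventional with mature dendritic cells joined (cDC). B or plasma cells and neutrophils also reached 20 cells but were not tested. Each class name stands for "X-like" cells, since it comes from markers alone. Levels are a gene's counts per 1000000 UMIs of a mouse's cells in the set (CPM). These UMIs are those of the genes tested, scaled by edgeR's TMM factors. Levels in melanoma-like cells, sums over gene lists and levels per pool are per 1000000 UMIs of all genes, without that scaling. Every adjusted p is from edgeR's quasi-likelihood test on counts summed per mouse, with Benjamini-Hochberg adjustment over all genes tested in the set, and a gene was called at an adjusted p under 0.05. The titles number the lanes as replicates, technical ones for the control CD40 lanes, and the design text says that hashtags marked individual mice. The p-values measure the spread between mice, as hashtags define them, within all 4 groups fitted together. That spread thus comes in large part from the isotype mice, and the control CD40 group adds only its 2 mice. With 2 against 4 mice a lack of overlap is common: it held for 40.8% of all genes tested in monocytes and macrophages, 34.3% in CD8 T cells, 28.6% in CD4 T cells, 22.0% in regulatory T cells, 26.8% in NK cells and 21.1% in cDC.

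The targeted gene was read first, in the few carry-over cells with melanoma genes. B2m (ENSMUSG00000060802, GRCm38 chr2:122147686-122153083, plus strand) stood at 2023 and 2127 CPM in melanoma-like cells of the 2 control lanes and at 421 and 416 CPM in those of the 2 B2m-null lanes. Its level per mouse was 1841 and 2232 CPM in the control mice and 522, 558, 572 and 585 CPM in the B2m-null mice, in the direction the labels give and without overlap. In the isotype lanes, melanoma-like cells had 1585 and 1064 CPM in control tumours and 220 and 191 CPM in B2m-null tumours. These cells were few, 219 and 282 on the control lanes and 88 and 46 on the B2m-null lanes, and hashtags left 14.6% and 14.5% of them without a mouse on the control lanes and 58.0% and 67.4% on the B2m-null lanes. In the host's monocytes and macrophages, B2m was at 5546 and 6178 CPM in control mice and at 5227, 4784, 4912 and 4938 CPM in B2m-null mice, a log2 difference of -0.24 (adjusted p = 0.335). The medians of B2m and the heavy chain genes H2-K1 and H2-D1 lay between -0.24 and 0.27 on the log2 scale over the 6 sets. edgeR called 0 of these 18 tests, and 3, all of H2-D1, had an unadjusted p under 0.05. DESeq2 called 1 of them, H2-D1 in cDC.

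A set of genes moved the same way in nearly all cell types, which bears on every count below. Of 3523 genes tested in all 6 sets, at least 5 sets agreed on a call for 41, of which 23 had higher and 18 had lower levels with B2m-null tumours. The genes called lower included ribosomal protein genes such as Rpl37a, with log2 differences of -0.82 in monocytes and macrophages, -1.26 in CD8 T cells and -1.20 in NK cells, and Rps29 (-0.99, -0.95 and -0.89 in the same order). The genes called higher included the mitochondrial gene mt-Atp6 (1.09, 1.21 and 1.23) and Calr, a chaperone of class I assembly (0.62, 0.76 and 0.93). In monocytes and macrophages, mitochondrially encoded genes summed to 39312 and 44678 CPM in control mice and to 47529 to 51032 CPM in B2m-null mice. In CD8 T cells they summed to 42856 and 44348 CPM against 46343 to 53168 CPM. The control CD40 pool lay outside all 6 other pools, isotype pools included, for 17 of the 23 higher and 17 of the 18 lower genes in monocytes and macrophages, and for 20 of 23 and 16 of 18 in CD8 T cells. These genes were chosen by their difference between control and B2m-null CD40 mice, so the gap to the B2m-null CD40 pools comes with that choice. The share of all genes tested for which the control CD40 pool lay outside the others was not counted. Calls also went with transcript length. In CD8 T cells the median longest transcript was 1886 bases for genes called higher, 4290 bases for genes called lower and 3381 bases for all genes tested, and the median log2 difference fell from 0.31 in the shortest of 5 equal length groups to -0.21 in the longest. The part of this shared pattern in each single call was not tested, but a fit with an offset for length, chosen after seeing the data, kept 1083 of the 1389 calls in monocytes and macrophages and 598 of the 1173 calls in CD8 T cells.

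**Figure D1:**
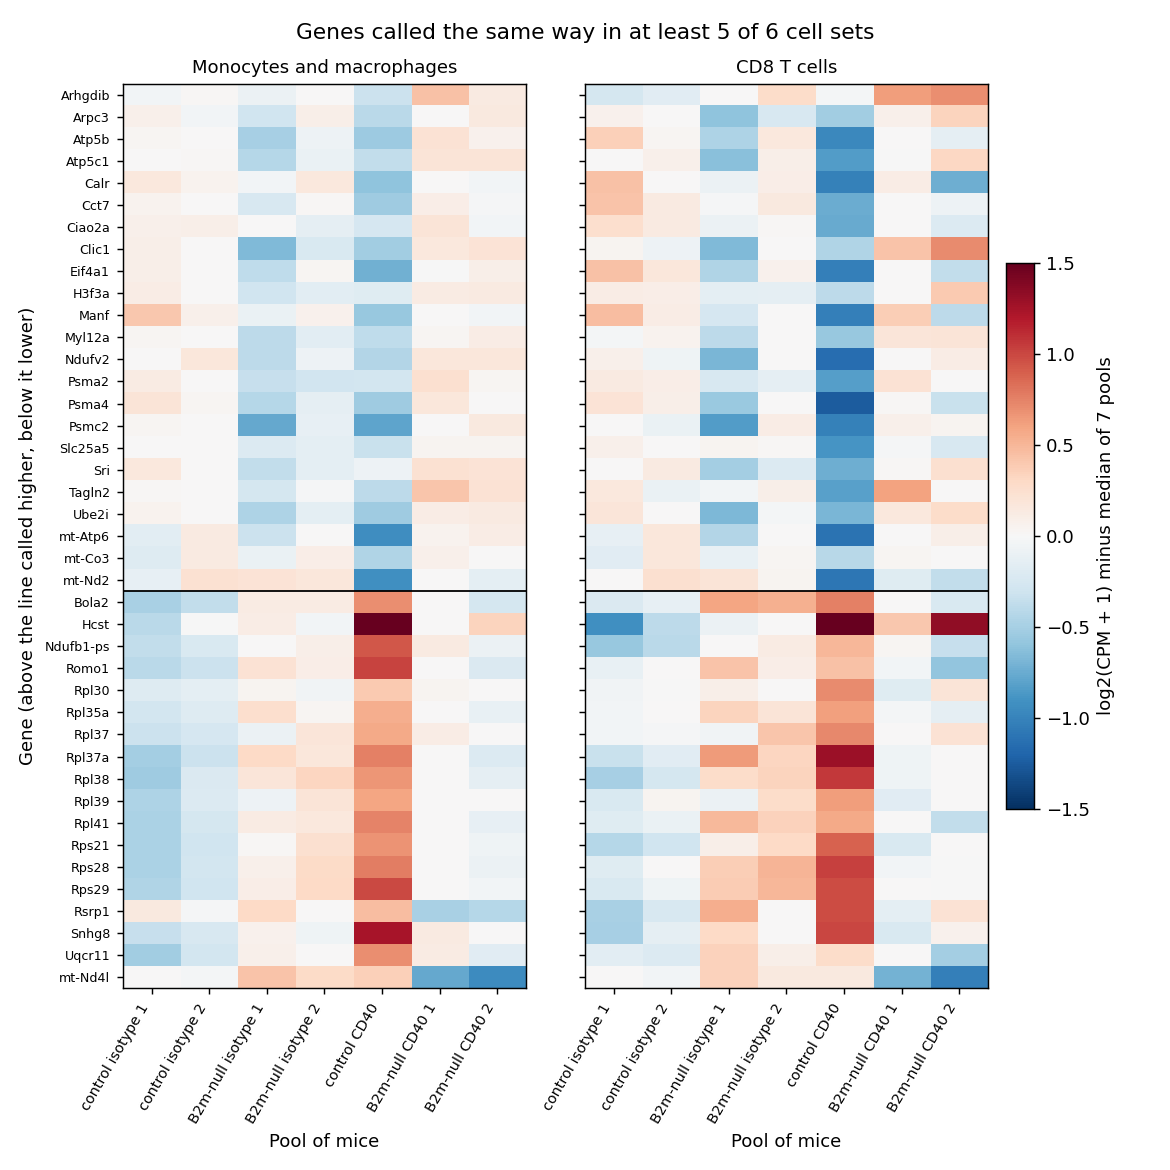
Colour gives log2(CPM + 1) of each pool minus the median of 7 pools, for the 41 genes (y axis) called the same way in at least 5 of 6 cell sets, in monocytes and macrophages and in CD8 T cells, with pools of mice on the x axis. The column of the control CD40 pool stands apart from the other pools, low for most genes above the line and high for most below it. The genes were drawn from calls between control and B2m-null CD40 mice, so the gap to the B2m-null CD40 pools comes with that choice.

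Shares of cell classes did not separate the genotypes. CD8 T cells were 32.2% and 37.6% of the haematopoietic cells of control mice and 6.67%, 21.3%, 33.1% and 26.7% of those of B2m-null mice. Monocytes and macrophages were 44.6% and 42.3% in control mice and 72%, 59.2%, 43% and 49.8% in B2m-null mice. The pools of B2m-null mice differed in both classes, with B2m-null mice 3 and 4 nearer to the control mice than mice 1 and 2. Mean differences, B2m-null minus control, were -13 points for CD8 T cells and 12.6 points for monocytes and macrophages (two-sided exact permutation p = 0.267 for both, adjusted p = 0.495 over 13 classes). Without B2m-null mouse 1 they were -7.9 and 7.22 points, and with finer clusters (Leiden resolution 2) the second was 20.1 points. At that resolution the class was cut differently. Clusters led by Rnf128, Il18bp and Gpnmb (4383 cells over all lanes) and by Cxcl3, Thbs1 and Ppbp (4457 cells) stayed unnamed and were not counted in it. Their part in the change was not tested. Conventional CD4 T cells, at 5.02% and 2.43% in control mice, were 0.866% and 1.83% in the first B2m-null pool and 9.66% and 8.28% in the other. NK cells made up 5.43% and 1.96% in control mice and 2.26% to 4.68% in B2m-null mice (difference -0.53 points, exact permutation p = 0.8). Regulatory T cells were at 0.927% and 0.86% in control mice against 0.862% to 1.82%, and mature dendritic cells at 0.163% and 0.228% against 0.186% to 1.39%. All 13 classes overlapped between the genotypes, and 0 passed. With 4 against 2 mice the exact test cannot go below 0.133, and 0 classes had an unadjusted p under 0.05 by it. edgeR on the cell numbers called 0 classes too, with 1 unadjusted p under 0.05, that of mature dendritic cells (p = 0.0287, adjusted p = 0.373).

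**Figure D2:**
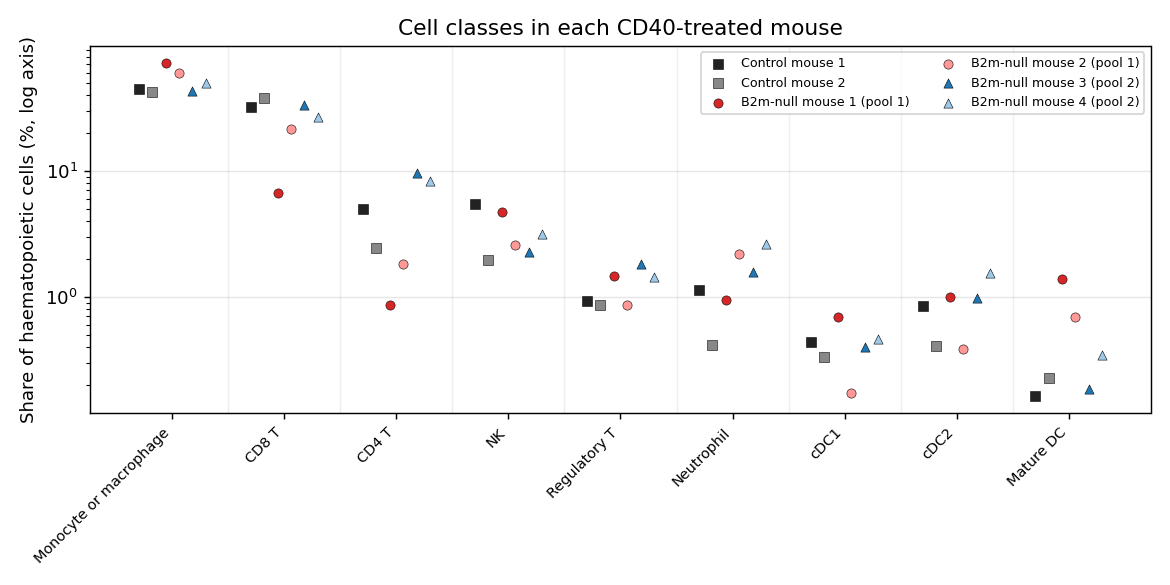
Each point is the share of 1 mouse's haematopoietic cells (y axis, percent, log axis) that fell in a class (x axis), with squares for the 2 control mice, circles for B2m-null pool 1 and triangles for B2m-null pool 2. The ranges of the 2 genotypes overlap in each class shown, as for CD8 T cells at 32.2% and 37.6% against 6.67% to 33.1%.

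In monocytes and macrophages, B2m-null tumours under CD40 had more transcripts of Ass1, Spp1, Cd14 and Cd86 and of the chemokine genes Ccl2 and Ccl12, and fewer of the lysosomal proteases Ctsd and Ctss. Of 12596 genes tested, B2m-null tumours had 593 (4.71%) at a higher and 796 (6.32%) at a lower level. The split turned with the mice of the CD40 groups alone (946 higher, 718 lower), by DESeq2 (855 and 816) and with the length offset (629 and 619). The largest rises included Ass1, which makes the arginine precursor argininosuccinate, at 3.92-fold, and Spp1, the secreted phosphoprotein osteopontin, at 2.89-fold. Wfdc17, a small secreted protein of activated macrophages, fell by 1.56 on the log2 scale.

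Ass1 was at 27.2 and 38.2 CPM in control mice and at 72.1, 187, 111 and 146 CPM in B2m-null mice. All 4 B2m-null mice lay above both control mice, where 40.8% of all genes tested had no overlap in either direction. The difference was 1.97 on the log2 scale (SE 0.53, adjusted p = 0.0327). Clec5a, a myeloid C-type lectin receptor, was at 22.2 and 30.9 CPM in control mice and at 68.2, 113, 55.2 and 71.7 CPM in B2m-null mice. This difference of 1.52 (SE 0.23, adjusted p = 0.00115) was kept without either control mouse. Spp1 had 546 and 628 CPM in control mice against 1052, 1218, 2112 and 2392 CPM (1.53, SE 0.43, adjusted p = 0.0353), with the first B2m-null pool below the other. Its isotype means were 1249 CPM with control and 1649 CPM with B2m-null tumours. Slfn4, an interferon-inducible gene, had 7.16 and 5.55 CPM in control mice against 25.8, 19.8, 20.6 and 20.2 CPM (1.79, SE 0.36, adjusted p = 0.0092). Isotype means of Slfn4 were 54.9 CPM with control and 37.5 CPM with B2m-null tumours, both above every CD40-treated mouse. Mcemp1, a membrane protein of myeloid cells, and Hp, the haemoglobin-binding haptoglobin, rose by 1.78 and 1.59 on the log2 scale (adjusted p = 0.0158 and 0.0172). Slfn4, Mcemp1, Hp and Spp1 are each among the 10 leading genes of a cluster (15, 9, 1 and 6), and the spread of cells over clusters differed between mice. Cluster 2, led by Atp6v0d2, Gpnmb and Mmp12, held 44.6% and 39.3% of the monocytes and macrophages of control mice and 11.2%, 9.02%, 17.6% and 15.2% in B2m-null mice. Cluster 9, led by Ly6i and Fpr2, held 6.74% and 9.31% in control mice, 25.4% and 42.7% in the first B2m-null pool and 10.6% and 12.4% in the other. Cluster sizes carry no test here, since the genes that define clusters are among those that differ. Macrophage clusters were 75.3% and 81.5% of the joined set in control mice and 53.3%, 36.3%, 65.3% and 60.5% in B2m-null mice. Tested apart, macrophages gave 810 genes higher (6.74%) and 846 lower (7.04%) of 12024, and monocytes 305 (2.92%) and 332 (3.18%) of 10441. The monocyte part includes cluster 6, led by Cxcl3, Mmp13, Ppbp and Thbs1, with no monocyte or macrophage marker among its 10 leading genes. The same lack held for cluster 9 of the monocyte part and for clusters 2, 3, 10 and 19 of the macrophage part. Only macrophage cluster 0 and monocyte cluster 1 had such markers there, so the split between the parts rests on weak marker scores for many cells.

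The chemokine genes Ccl2 and Ccl12, whose products attract monocytes, were higher. Ccl2 was at 1474 and 1271 CPM in control mice and at 2536, 1872, 2706 and 3482 CPM in B2m-null mice (log2 0.95, SE 0.27, adjusted p = 0.033). Ccl12 was at 535 and 633 CPM against 1357, 1224, 1224 and 1669 CPM (1.23, SE 0.24, adjusted p = 0.00672). Under isotype, Ccl2 averaged 3921 CPM with control and 2605 CPM with B2m-null tumours, and Ccl12 1446 and 1162 CPM. For both genes the control CD40 mice were thus below both isotype means. Over all genes tested, 4.71% rose and 6.32% fell. Of 31 chemokine and chemokine receptor genes tested, 3 rose (Ccl2, Ccl12 and Ccl9) and 1 fell. That gene was Cxcr4, a retention receptor, which had 151 and 141 CPM in control mice and 85.9, 65.7, 79.7 and 60.4 CPM in B2m-null mice (-1.01, SE 0.19, adjusted p = 0.00489). Its isotype means were 50.2 CPM with control and 69.2 CPM with B2m-null tumours. The list's median log2 difference was 0.51, against -0.02 over all genes tested. In macrophages alone 6 of 31 rose, Ccl7 among them, and Cxcr4 fell, with a median of 0.19. There 6.74% of all genes tested rose and 7.04% fell.

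Of 20 monocyte genes, 2 rose, Hp and Cd14, the coreceptor for bacterial lipopolysaccharide. All 20 had a positive difference, with a median of 0.65. Tested apart, the median was 0.36 in macrophages, with 16 of 20 positive, and 0.27 in monocytes, with 13 of 20 positive. Cd14 stood at 196 and 148 CPM in control mice and at 314, 373, 386 and 414 CPM in B2m-null mice (1.11, SE 0.20, adjusted p = 0.00343). Of 30 inflammatory myeloid genes, 2 rose, Ass1 and Il12a, and the median was 0.42. In macrophages alone none of 28 rose and 2 fell (Il27 and Hif1a), with a median of 0.03, and in monocytes alone 1 of 29 rose, Ass1, with a median of 0.15. Beside the 4.71% of all genes tested that rose in the joined set, the counts of these 2 lists are no result about monocyte or inflammatory genes as groups. Cd86 and Traf1 were the 2 that rose among 21 tested genes of CD40, the TNF superfamily and costimulation, and Cd28 fell. In macrophages alone none of the 21 rose and 3 fell (Cd27, Cd28 and Cd274), with a median of -0.29, and in monocytes alone Cd86 and Traf1 were the 2 of 19 that rose. In macrophages Cd86 had a difference of 0.73 (adjusted p = 0.0527) and Traf1 of 0.85 (adjusted p = 0.0681). In the joined set Cd86, the ligand of CD28 that CD40 signals induce, was at 41.9 and 57.3 CPM in control mice and 83.3 to 110 CPM in B2m-null mice (0.92, SE 0.23, adjusted p = 0.0209). Isotype means of Cd86 were 103 CPM with control and 58.4 CPM with B2m-null tumours, so the control CD40 mice were below both. Traf1, an adaptor of TNF receptors, was at 23.5 and 24.1 CPM against 37.8 to 85.1 CPM (1.28, SE 0.38, adjusted p = 0.0425).

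Among 20 genes of lipid-associated macrophages, 4 fell (Abcg1, Ctsd, Ctsb and Lgmn) and 1, Spp1, rose, with a median of -0.30. Over all genes tested, 6.32% fell and 4.71% rose. In macrophages alone 4 of the 20 fell and Spp1 rose, with a median of -0.33. In monocytes alone only Abcg1 was called, lower, with 11 of 20 differences positive and a median of 0.05. Ctsd, the lysosomal protease cathepsin D, was at 4247 and 4639 CPM in control mice and at 2207, 2056, 3135 and 2711 CPM in B2m-null mice (-0.81, SE 0.20, adjusted p = 0.0171). Ctss, outside the lipid-associated list, the cathepsin that trims the class II invariant chain, was at 5510 and 5839 CPM against 3211, 2909, 3839 and 3724 CPM (-0.73, SE 0.17, adjusted p = 0.0156). Abcg1, a cholesterol exporter, was at 286 and 240 CPM against 144, 100, 154 and 151 CPM (-0.94, SE 0.17, adjusted p = 0.00462). Cd5l, a secreted scavenger protein of macrophages, fell by 1.40 on the log2 scale (adjusted p = 0.043). Wfdc17 was at 5848 and 6449 CPM in control mice and at 1800, 1047, 2713 and 2805 CPM in B2m-null mice (-1.56, SE 0.26, adjusted p = 0.00274). Under isotype, Wfdc17 averaged 2258 CPM with control and 3408 CPM with B2m-null tumours, and Ctsd 2470 and 3250 CPM. For these genes the control CD40 mice were thus above both isotype means. For Ctsd, Ctss, Abcg1 and Wfdc17 both control mice lay above all 4 B2m-null mice, a gap in either direction that 40.8% of all genes tested showed.

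In the joined set, 2 of the interferon genes listed passed the test. Of 31 genes of the interferon-gamma response tested, 1 rose, the Fc receptor gene Fcgr1 (209 and 211 CPM against 284 to 314 CPM, log2 0.50, adjusted p = 0.0373), beside 4.71% of all genes tested. Isotype means of Fcgr1 in the joined set were 366 CPM with control and 225 CPM with B2m-null tumours, both above the control CD40 mice. Fcgr1 was not called in macrophages alone (0.30, adjusted p = 0.0966) or in monocytes alone (0.41, adjusted p = 0.123). The list's median was -0.28, and 8 of its genes had a positive difference. Of 29 type I interferon-stimulated genes, 1 rose, Isg20, while 27 had a positive difference and the median was 0.53. In monocytes alone 7 of 29 rose (Rtp4, Ms4a4c, Oas1a, Irf7, Isg15, Isg20 and Ifit3), with a median of 0.70, where 2.92% of all genes tested rose. In macrophages alone 1 of 29 rose, Isg20, with a median of 0.24. Cluster 15, led by Rsad2, Ifit2, Cmpk2 and Ifit1, was in the joined set but in neither of these 2 parts. It held 1.42% and 1.92% of the joined set in control mice and 2.41%, 2.18%, 4.22% and 6.18% in B2m-null mice. Its part in these counts was not tested. Cxcl10, a chemokine for CXCR3 on T cells, had 309 and 477 CPM in control mice and 426 to 1005 CPM in B2m-null mice (0.76, adjusted p = 0.274), with overlap. Arg1, the arginase of alternatively activated macrophages, had 405 and 174 CPM against 513 to 598 CPM (0.91, adjusted p = 0.201). Cd274, which encodes the inhibitory ligand PD-L1, had 410 and 376 CPM against 221 to 288 CPM (-0.66, adjusted p = 0.212), and neither of these 2 passed the test in the joined set. In macrophages alone Cd274 was called lower, with 403 and 355 CPM against 160 to 215 CPM (-0.98, SE 0.30, adjusted p = 0.0438). Of 30 cell cycle genes, 5 rose, among them Ccnb2 (1.14, adjusted p = 0.0118) and Cdk1 (0.94, adjusted p = 0.0289), and 28 had a positive difference. In macrophages alone 23 of the 30 rose and all 30 had a positive difference, with a median of 0.93, where 6.74% of all genes tested rose, and in monocytes alone 3 of 28 rose. Cluster 10, macrophages with Hist1h1b, Ube2c, Birc5, Ccnb1 and Mki67 among their 10 leading genes, was 3.53% and 5.48% of the joined set in control mice and 8.36%, 12.2%, 6.2% and 6.18% in B2m-null mice, and its part in these counts was not tested. The number called was 171 without control mouse 1 and 176 without control mouse 2, and 6 of the 32 named genes that were called kept their call without each of them: Clec5a, Smim27, Wfdc17, Hcst, Mylip and Tnfaip2. Melanoma genes summed to 95.8 and 106 CPM in control mice and to 60.9 to 70.0 CPM in B2m-null mice, and T cell genes to 69.0 and 102 CPM and to 49.9 to 75.9 CPM, and their part in the result was not tested.

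**Figure D3:**
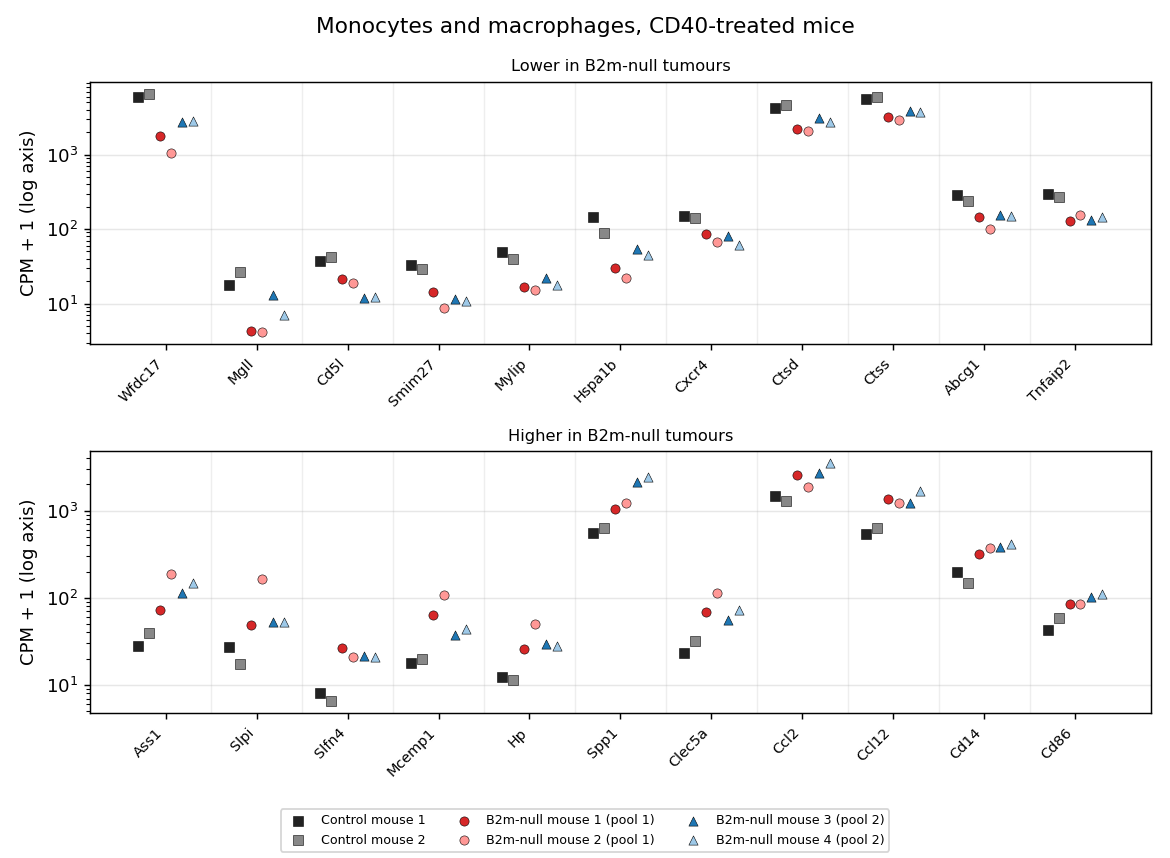
Each point is the level of a gene (x axis) in the monocytes and macrophages of 1 mouse (y axis, CPM + 1, log axis), for genes called lower (upper panel) and higher (lower panel) in B2m-null tumours. The genes were drawn from calls, largely those without overlap, so the gap between squares and other symbols comes with that choice, and the plot shows its size, as for Ccl2 with 1474 and 1271 CPM against 1872 to 3482 CPM.

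CD8 T cells of B2m-null tumours had far fewer transcripts of the granzyme genes Gzmd, Gzme and Gzmf, fewer of the Nr4a genes that antigen receptor signals induce, and more of genes for DNA synthesis and mitosis. Of 9654 genes tested, 690 (7.15%) were higher and 483 (5.00%) lower. Of 26 cytotoxic effector genes, 5 fell (Gzmf, Gzmd, Gzme, Serpinb9b and Cx3cr1) and none rose, with a median log2 difference of -0.34 against -0.02 over all genes tested. Of 30 cell cycle genes, 12 rose and none fell, with a median of 1.12.

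The granzymes D, E and F are serine proteases of mouse cytotoxic cells whose genes lie on GRCm38 chromosome 14: Gzme at chr14:56117626-56120625, Gzmd at chr14:56129556-56132608 and Gzmf at chr14:56205263-56211417, all on the minus strand. Such closely related genes can share reads, so their counts are uncertain between members. Gzmf had 79 and 64 CPM in control mice and 2.26, 7.18, 0 and 0.351 CPM in B2m-null mice (log2 -5.09, SE 1.23, adjusted p = 0.0218). Its 0 in B2m-null mouse 3 allows up to 0.533 CPM, the level of 3 counts. Gzmd had 32.2 and 25.8 CPM against 0, 1.71, 0.178 and 4.57 CPM (-4.07, SE 0.85, adjusted p = 0.0116). Its 0 in B2m-null mouse 1 allows up to 6.78 CPM at 3 counts, above the values of the other B2m-null mice. For Gzme the values were 33.7 and 17.9 CPM against 9.05, 1.03, 0 and 4.92 CPM (-3.68, SE 0.96, adjusted p = 0.0285). In every case all 4 B2m-null mice lay below both control mice, where 34.3% of all genes tested in CD8 T cells had no overlap in either direction. The same genes were also lower in B2m-null tumours under isotype, where Gzmf averaged 335 CPM in control and 17.2 CPM in B2m-null mice, and its genotype difference under CD40 was not shown to differ from that under isotype (interaction adjusted p = 0.967). Prf1, which encodes the pore-forming perforin, had 242 and 176 CPM in control mice and 128 to 140 CPM in B2m-null mice and did not pass (-0.64, adjusted p = 0.228). Gzmb was not called either. In thinned cells, at least 1 Gzmb UMI was seen in 45.3% and 30.2% of the CD8 T cells of control mice. The shares in B2m-null mice were 37.9%, 31%, 34.5% and 42%.

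Nr4a1, Nr4a2 and Nr4a3 encode orphan nuclear receptors that T cell receptor signals switch on within a short time and that limit effector function in tumours. Nr4a2 was at 244 and 189 CPM in control mice and at 85.9, 67.4, 93.1 and 103 CPM in B2m-null mice (-1.30, SE 0.25, adjusted p = 0.00336). Nr4a3 was at 54 and 41.4 CPM against 24.9, 11.6, 18.1 and 24.2 CPM (-1.35, SE 0.24, adjusted p = 0.00143). Nr4a1 was at 94.5 and 62.3 CPM against 45.2, 40.4, 37 and 33 CPM (-1.04, SE 0.21, adjusted p = 0.00279). No B2m-null mouse reached a control mouse for any of the 3 genes, where 34.3% of all genes tested had no overlap in either direction. Because these members moved together, their promoters are shown, the 250 bases before the RefSeq start of each gene in GRCm38.p6, 5' to 3' on the gene's strand. Capitals mark each TGACG or its reverse complement CGTCA, the core of the cAMP response element, for which these 2 spellings, which overlap no other motif searched, were the only ones sought. The windows are chr15:101266596-101266845 (plus strand), chr2:57124004-57124253 (minus strand) and chr4:48045055-48045304 (plus strand).
Nr4a1: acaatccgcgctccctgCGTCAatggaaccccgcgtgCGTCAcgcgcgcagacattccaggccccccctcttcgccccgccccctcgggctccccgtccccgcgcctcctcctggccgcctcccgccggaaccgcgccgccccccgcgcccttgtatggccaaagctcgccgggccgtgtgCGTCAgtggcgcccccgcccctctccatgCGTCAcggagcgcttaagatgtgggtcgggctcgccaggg
Nr4a2: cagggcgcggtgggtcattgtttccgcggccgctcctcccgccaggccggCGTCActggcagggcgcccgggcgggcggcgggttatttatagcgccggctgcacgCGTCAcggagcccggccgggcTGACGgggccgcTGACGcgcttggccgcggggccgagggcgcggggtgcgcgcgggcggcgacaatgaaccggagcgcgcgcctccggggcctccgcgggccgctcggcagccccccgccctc
Nr4a3: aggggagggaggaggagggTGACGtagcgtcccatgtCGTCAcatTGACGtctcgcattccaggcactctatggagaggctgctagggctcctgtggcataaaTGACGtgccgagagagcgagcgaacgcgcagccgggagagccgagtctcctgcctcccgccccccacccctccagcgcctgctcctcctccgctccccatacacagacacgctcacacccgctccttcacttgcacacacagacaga
Each window holds 4 matches. Of 32851 RefSeq promoter windows of the same length, 5836 (17.8%) hold at least 1 match and 226 (0.69%) hold 3 or more. A match is a description of these letters and says nothing of binding in these cells.

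Of 23 genes for inhibitory receptors and exhaustion, 8 fell and 2, Batf and Cd160, rose, with a median of -0.36. Over all genes tested in CD8 T cells, 5.00% fell and 7.15% rose. Pdcd1, the gene of the inhibitory receptor PD-1, was not called. In thinned cells it was seen in 10.1% and 9.49% of the cells of control mice and in 7.26%, 12%, 11% and 8.92% in B2m-null mice. Lag3, an inhibitory receptor that binds class II, was at 126 and 111 CPM in control mice and at 63.3, 46.5, 64.9 and 61.2 CPM in B2m-null mice (-1.02, SE 0.20, adjusted p = 0.00205). Spry2, a feedback inhibitor of receptor tyrosine kinase and MAP kinase signals, was at 70.9 and 60.5 CPM against 49.8, 13.3, 15.6 and 15.8 CPM (-1.87, SE 0.38, adjusted p = 0.00583), with B2m-null mouse 1 nearest to the control mice. Rgs16, a regulator of G-protein signals that T cell activation induces, was at 199 and 105 CPM against 52, 51, 40.9 and 71 CPM (-1.50, SE 0.37, adjusted p = 0.0191). Of 22 genes of the T cell receptor activation response, 3 fell, the Nr4a genes, and none rose, where 5.00% of all genes tested fell. Nr4a2 and Nr4a3 also count among those that fell in the inhibitory receptor and exhaustion list. S1pr1, the receptor by which T cells leave tissue, fell from 110 and 135 CPM to 46.2 to 90 CPM (-0.90, SE 0.22, adjusted p = 0.01). Tcf7, a factor of stem-like T cells, overlapped, with 146 and 159 CPM against 29.4 to 154 CPM (-0.67, adjusted p = 0.43).

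Some interferon-gamma response genes of the CD8 T cells fell. Of 26 genes of the interferon-gamma response, 7 fell (Iigp1, Cd274, Irgm2, Gbp5, Irf1, Gbp6 and Gbp4) and none rose, with a median of -0.31, where 5.00% of all genes tested fell. Cd274 had 62.6 and 107 CPM in control mice and 36.2, 43.4, 43.9 and 51 CPM in B2m-null mice (-0.93, SE 0.18, adjusted p = 0.00211). Of 24 type I interferon-stimulated genes, 3 rose (Isg15, Isg20 and Zbp1) and none fell, where 7.15% of all genes tested rose, so that count says little of the list. Isg15, a ubiquitin-like protein, had 31.9 and 32.3 CPM against 40.7, 62.6, 82.5 and 72.8 CPM (1.09, SE 0.25, adjusted p = 0.00787). Psmb8 (GRCm38 chr17:34197721-34201454, plus strand), a catalytic subunit of the immunoproteasome that cuts peptides for class I, had 423 and 468 CPM in control mice and 672, 735, 962 and 1025 CPM in B2m-null mice (0.94, SE 0.22, adjusted p = 0.00975). It was called higher in CD4 T and NK cells as well.

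Tyms, which makes the thymidylate needed for DNA synthesis, was at 35.5 and 22.9 CPM in control mice and at 111, 124, 81.2 and 112 CPM in B2m-null mice (1.90, SE 0.27, adjusted p = 0.000355). Prim1, a subunit of the primase that starts DNA strands, was at 11.9 and 10.5 CPM against 63.3, 43.4, 28.1 and 34.1 CPM (1.78, SE 0.25, adjusted p = 0.000255). Under isotype, Tyms averaged 104 CPM with control and 71.9 CPM with B2m-null tumours, and Prim1 55.4 and 40.6 CPM. For both genes the control CD40 mice were thus below both isotype means. The proliferation marker Mki67 was at 168 and 101 CPM in control mice and at 366, 400, 176 and 239 CPM in B2m-null mice (1.12, SE 0.30, adjusted p = 0.0224), with B2m-null mouse 3 just above control mouse 1. Under isotype, Mki67 averaged 346 CPM with control and 392 CPM with B2m-null tumours. At least 1 Mki67 UMI was seen in 14.2% and 9% of the CD8 T cells of control mice and in 40.9%, 42.2%, 14% and 19.9% of those of B2m-null mice. With every cell thinned to 1000 UMIs, the shares were 10.9% and 6.28% against 18.5%, 25.3%, 6.95% and 10%. The second B2m-null pool overlapped the control mice with and without thinning. Every type here can divide, so none gives a background share. Conventional CD4 T cells had thinned shares of 1.6% to 5.88%. The CD8 T cells had a median of 1342 and 1190 UMIs in control mice and of 2128 to 2417 UMIs in B2m-null mice. Mki67 itself was not called in thinned cells (adjusted p = 0.2), while Tyms and Prim1 were (adjusted p = 0.00083 and 0.033). Of 23 glycolysis and hypoxia genes, 7 rose, among them Aldoa (0.85, adjusted p = 0.0165) and Gapdh (0.70, adjusted p = 0.0396), where 7.15% of all genes tested rose. With the length offset Aldoa was not called (edgeR adjusted p = 0.069) and Gapdh was (adjusted p = 0.046).

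CD8 T cells were spread differently over clusters. Cluster 5, whose cells had a median of 831 UMIs, held 46.5% and 51.6% of the CD8 T cells of control mice and 27.3%, 16.9%, 11.2% and 10.9% in B2m-null mice. Cluster 8, led by Gzmf and Gzmb, held 23.6% and 10.1% in control mice, 50% and 52.2% in B2m-null mice 1 and 2 and 11.4% and 19.4% in B2m-null mice 3 and 4. The cluster that Gzmf leads was thus larger in the first B2m-null pool, where Gzmf had 2.26 and 7.18 CPM, than in the control mice, where it had 79 and 64 CPM. Cluster 4, led by Ccl5, Cd8b1 and Gzmk, held 29.9% and 38.3% in control mice, 22.7% and 31% in B2m-null mice 1 and 2 and 77.4% and 69.7% in B2m-null mice 3 and 4. Among CD8 T cells, 35.9% and 40.1% in control mice and 4.53% to 19.5% in B2m-null mice had under 1000 UMIs. Without control mouse 2 the number called fell from 1173 to 42, and without control mouse 1 to 541. Nr4a2, Nr4a3, Lag3, Tyms and Prim1 were the 5 of 33 named genes that kept their call without each control mouse, and the 3 granzymes did not. Macrophage genes, some of which T cells also express, summed to 2800 and 2946 CPM in the CD8 T cells of control mice and to 3215 to 3894 CPM in B2m-null mice. Melanoma genes summed to 32.3 and 42.2 CPM and to 4.80 to 15.6 CPM. The part of both lists in the result was not tested.

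**Figure D4:**
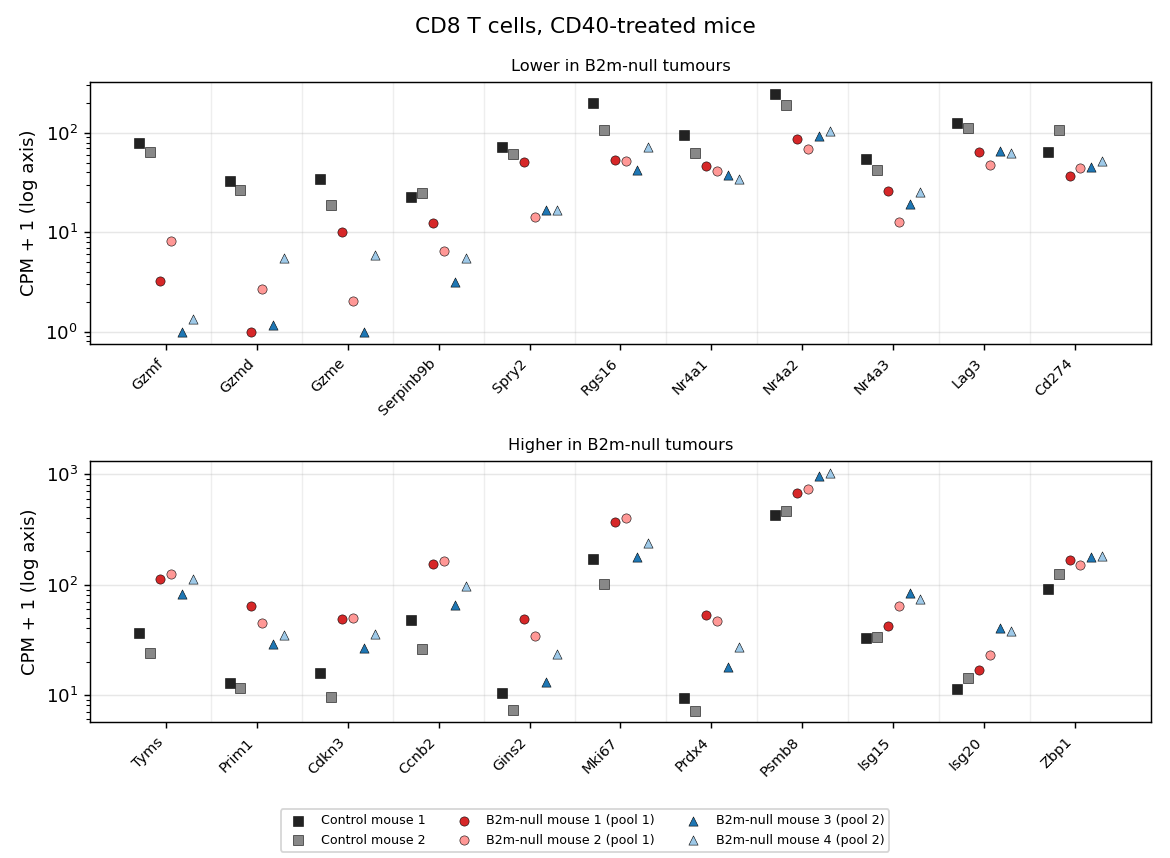
Each point is the level of a gene (x axis) in the CD8 T cells of 1 mouse (y axis, CPM + 1, log axis), for genes called lower (upper panel) and higher (lower panel) in B2m-null tumours. The genes were drawn from calls, largely those without overlap, so the gap between squares and other symbols comes with that choice, and the plot shows its size, as for Gzmf with 79 and 64 CPM against 0 to 7.18 CPM.

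Conventional CD4 T cells of B2m-null tumours had fewer transcripts of Nr4a2, Rgs16 and Lag3, each also called lower in CD8 T cells, and of Cd40lg, called lower in CD4 T cells alone of the 6 sets. Of 3679 genes tested, 211 (5.74%) were higher and 103 (2.80%) lower. With the length offset the split was 88 higher and 78 lower. Of 15 genes for inhibitory receptors and exhaustion tested, 6 fell (Lag3, Nr4a2, Nr4a3, Havcr2, Maf and Nfatc1) and none rose, with a median of -0.51. Lag3 overlapped between the mice, with 74.2 and 218 CPM against 36.9 to 91.7 CPM. Of 17 T cell receptor response genes, 4 fell, the 3 Nr4a genes and Cd40lg.

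Nr4a2 was at 179 and 186 CPM in the CD4 T cells of control mice and at 68.8, 43, 60.1 and 84.6 CPM in those of B2m-null mice (-1.44, SE 0.23, adjusted p = 0.000165). Cd40lg, the natural ligand of CD40, was at 78.3 and 124 CPM against 22.9, 30.7, 55.4 and 58.2 CPM (-0.97, SE 0.25, adjusted p = 0.0136). Neither gene overlapped between the genotypes, where 28.6% of all genes tested had no overlap in either direction. Ccl3, a chemokine that attracts leukocytes, was at 280 and 958 CPM against 45.8, 92.2, 86.5 and 123 CPM (-2.67, SE 0.49, adjusted p = 0.0179), with a wide gap between the control mice. Rgs16 was at 196 and 310 CPM against 115, 55.3, 54 and 88.6 CPM (-1.91, SE 0.26, adjusted p = 0.000138). Among the genes that rose, Rnh1, an inhibitor of ribonucleases, was at 43.3 and 51.2 CPM against 138, 172, 155 and 153 CPM (1.70, SE 0.23, adjusted p = 1.55e-05). Gzmk, a granzyme of memory-like T cells, rose from 35 and 57.4 CPM to 68.8, 92.2, 116 and 124 CPM (1.23, SE 0.26, adjusted p = 0.00377). B2m-null mouse 1 had only 20 CD4 T cells, and its values carry few counts. Macrophage genes, some of which T cells also express, summed to 3368 and 3461 CPM in the CD4 T cells of control mice and to 3971 to 4273 CPM in B2m-null mice. Of these genes Lyz2 was called higher, and the part of the list was not tested. The number called was 8 without control mouse 1 and 10 without control mouse 2, and of the 17 named genes called, Ccl3, Nr4a2 and Rnh1 kept their call without each.

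In regulatory T cells, 66 genes (1.20%) were higher and 37 (0.673%) lower of 5499. With the length offset, 32 were higher and 41 lower. Tnfrsf4, the costimulatory receptor OX40, was at 648 and 773 CPM in control mice and at 1197, 1109, 1197 and 1596 CPM in B2m-null mice (0.83, SE 0.19, adjusted p = 0.0107). Tnfrsf4 and Capg were the 2 of 18 regulatory T cell identity genes that rose, and none fell. Neither was called with the length offset (edgeR adjusted p = 0.088 and 0.084), and Capg was not called in thinned cells (adjusted p = 0.057). Nr4a2 was at 140 and 129 CPM against 23.7, 55.9, 46.2 and 72.3 CPM (-1.36, SE 0.35, adjusted p = 0.0273), which made CD8, CD4 and regulatory T cells the 3 sets in which it was called lower. Rbpj, the DNA-binding partner of Notch, was at 172 and 224 CPM against 118, 140, 87 and 55.6 CPM (-1.16, SE 0.27, adjusted p = 0.0121). Each mouse had 34 to 147 of these cells. Macrophage genes, some of which T cells also express, summed to 3133 and 3589 CPM in control mice and to 3801 to 5149 CPM in B2m-null mice. Of these genes Fth1 and Ftl1 were called higher, while C1qa, C1qb, C1qc, Apoe and Lyz2 were not called. The part of these genes was not tested. The number called was 1 without control mouse 1 and 14 without control mouse 2, and none of the 8 named genes kept its call without each.

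NK cells, which class I restrains, had fewer transcripts of Spry2 and Tob1 and more of Cd160, Irf8 and Psmb8 in B2m-null tumours. Of 6470 genes tested, 137 (2.12%) were higher and 93 (1.44%) lower. Of 26 genes tested in the NK receptor list, which does not hold Cd160, 1 was called, the adaptor Hcst, which was lower in all 6 sets, and the list's median was 0.12 against 0.00 over all genes. Of 24 cytotoxic effector genes, 1 rose, the serpin Serpinb6b (0.70, adjusted p = 0.0371), with a median of 0.30. For both lists the share called was near that of 230 in 6470 over all genes, so these counts say nothing particular to the lists. Prf1 had 1098 and 817 CPM in control mice and 1428, 1500, 1123 and 1172 CPM in B2m-null mice, which did not pass (0.45, adjusted p = 0.287).

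After the ribosomal protein gene Rpl37a, Spry2 had the lowest adjusted p of the genes tested in NK cells. It was at 527 and 522 CPM in control mice and at 194, 244, 241 and 196 CPM in B2m-null mice (-1.26, SE 0.18, adjusted p = 1.36e-05), and its call was kept without each control mouse. Cd160, a receptor of NK cells that binds class I and HVEM, was at 20.9 and 54 CPM against 89.9, 113, 101 and 110 CPM (1.43, SE 0.32, adjusted p = 0.00701). Irf8, an interferon regulatory factor, was at 618 and 621 CPM against 924, 944, 1015 and 1086 CPM (0.68, SE 0.18, adjusted p = 0.018). In each case the B2m-null mice lay apart from the control mice, where 26.8% of all genes tested had no overlap in either direction. Tob1, an antiproliferative protein, was at 79.7 and 70.9 CPM against 21.4 to 31.3 CPM (-1.46, SE 0.32, adjusted p = 0.00463). Psmb8 rose here from 387 and 387 CPM to 615, 556, 752 and 789 CPM (0.81, SE 0.19, adjusted p = 0.00899). The number called was 17 without control mouse 1 and 30 without control mouse 2, and Spry2 was the 1 of 13 named genes that kept its call without each. Macrophage genes summed to 3112 and 3488 CPM in the NK cells of control mice and to 3696 to 4577 CPM in B2m-null mice. T cell genes, some of which NK cells also express, summed to 5489 and 4820 CPM against 6050 to 7220 CPM, with 10 of 11 differences positive and none called. Melanoma genes summed to 20.3 and 27.0 CPM against 0 to 13.7 CPM. The part of these genes in the result was not tested.

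Dendritic cells of B2m-null tumours had more transcripts of Cd86, Isg15 and Ifi30 and far fewer of the heat shock genes Hspa1a and Hspa1b. Of 9740 genes tested, 97 (0.996%) were higher and 76 (0.780%) lower. With cells thinned to 1000 UMIs the split turned to 12 higher and 28 lower. Cd86 and Ifi30 were then not called (edgeR adjusted p = 0.24 and 0.14). Isg15 was not called with the length offset (adjusted p = 0.092). Cd86 was at 81.9 and 87.9 CPM in control mice and at 182, 162, 183 and 166 CPM in B2m-null mice (1.02, SE 0.22, adjusted p = 0.0146). It was the 1 gene that rose of 20 tested in the CD40 and costimulation list. Cd40 itself was at 53.6 and 84.7 CPM against 223, 329, 106 and 133 CPM and did not pass (1.31, SE 0.41, adjusted p = 0.118). Of 28 type I interferon-stimulated genes, 2 rose, Isg15 and Ms4a4c, and 27 had a positive difference, with a median of 0.65. Isg15 was at 73.4 and 97.7 CPM against 290, 392, 183 and 231 CPM (1.57, SE 0.36, adjusted p = 0.0408). Ifi30, the lysosomal thiol reductase that opens antigens for class II, was at 932 and 929 CPM against 1337, 1434, 1634 and 1610 CPM (0.70, SE 0.13, adjusted p = 0.00518). It was the 1 of 13 class II presentation genes that rose, while 12 had a positive difference and the median was 0.58.

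Hspa1b and Hspa1a are near-identical genes of the inducible chaperone HSP70, side by side at GRCm38 chr17:34956436-34959238 and chr17:34969190-34972156 on the minus strand, so reads can be split between them. Hspa1b was at 474 and 195 CPM in control mice and at 18.6, 0, 1.5 and 11.1 CPM in B2m-null mice (-5.49, SE 1.03, adjusted p = 0.021), where the 0 allows up to 11.9 CPM at 3 counts. Hspa1a was at 412 and 192 CPM against 14.9, 3.96, 10.5 and 27.7 CPM (-4.20, SE 0.91, adjusted p = 0.0408). Dnajb1, a cochaperone of HSP70, was at 119 and 98.8 CPM against 52.1, 19.8, 49.5 and 38.8 CPM (-1.35, SE 0.24, adjusted p = 0.00345). The control mice were high for all 3, and these were the 3 of 20 heat shock and immediate early genes that fell, where 0.780% of all genes tested fell. Under isotype, Hspa1b averaged 35 CPM in control and 56.4 CPM in B2m-null mice. Hspa1b was also called lower in monocytes and macrophages (142 and 88.7 CPM against 21.3 to 53 CPM, adjusted p = 0.0325), in conventional CD4 T cells (414 and 130 CPM against 18.4 to 62.2 CPM, adjusted p = 0.0495) and in NK cells (123 and 65.9 CPM against 2.41 to 36.7 CPM, adjusted p = 0.029). In monocytes and macrophages the isotype means of Hspa1b were 86 CPM with control and 107 CPM with B2m-null tumours. There the B2m-null CD40 mice were below both isotype means, whereas in cDC the control CD40 mice were above both. With monocytes and macrophages tested apart, Hspa1b was called lower in monocytes and not called in macrophages. The make-up of the set differed too, since mature cells of cluster 16, led by Ccl22, Ccr7 and Fscn1, were 11.2% and 23.5% of it in control mice, 45.1% and 55.2% in the first B2m-null pool and 11.9% and 14.6% in the other. T cell genes summed to 1537 and 2109 CPM in control mice and to 859 to 1258 CPM in B2m-null mice, and macrophage genes, some of which dendritic cells also express, to 14805 and 17433 CPM and to 20411 to 26684 CPM. Their part in the result was not tested. Without control mouse 1, 27 genes were called, and 24 without control mouse 2. Of 12 named genes called, Dnajb1 kept its call without each.

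Whether the genotype difference under CD40 differed from that under isotype was tested in the same fits. With at least 20 cells per mouse, the isotype groups held 4 control and 2 B2m-null mice for CD4 T cells. They held 5 and 3 for regulatory T cells, 5 and 4 for CD8 T cells, and 5 and 5 for the other sets. The interaction was called for 2399 genes in monocytes and macrophages (19.0% of those tested), 1066 in CD8 T cells (11.0%), 10 in CD4 T cells (0.272%), 122 in regulatory T cells (2.22%), 180 in NK cells (2.78%) and 576 in cDC (5.91%). The interaction contains the CD40 difference by which genes were named, so it is no separate support for that difference. Cd86 in monocytes and macrophages was an example: its genotype difference was 0.92 under CD40 and -0.79 under isotype (interaction adjusted p = 0.00173). Fcgr1 went from -0.70 under isotype to 0.50 under CD40 (interaction adjusted p = 0.000834), and Cxcl10 from -1.68 to 0.76 (interaction adjusted p = 0.00984). In CD8 T cells, Psmb8 went from -0.65 to 0.94 (interaction adjusted p = 0.0015), and Tyms from -0.30 to 1.90 (interaction adjusted p = 0.000913). For Lag3 the 2 differences, -0.90 under isotype and -1.02 under CD40, were not shown to differ (interaction adjusted p = 0.846). Every interaction uses the single control CD40 pool, and its offset from the other pools enters each of them.

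With the pool rather than the mouse as the unit, where the control CD40 group is 1 sample and the spread comes from the other groups, 17 genes were called in monocytes and macrophages, 3 in CD8 T cells, 1 in CD4 T cells, 0 in regulatory T cells, 10 in NK cells and 1 in cDC. In regulatory T cells, 614 genes then had an unadjusted p under 0.05. Of the 115 named genes called by mouse, 9 were called by pool, among them Gzmd and Gzme in CD8 T cells (adjusted p = 0.00023 and 0.003), Spry2 in NK cells (adjusted p = 0.03) and Smim27 and Slfn4 in monocytes and macrophages (adjusted p = 0.033 and 0.03). Gzmf, the granzyme gene with the largest fall, was not called by pool. The lone control pool is assumed in that fit to vary like the others.

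**Figure D5:**
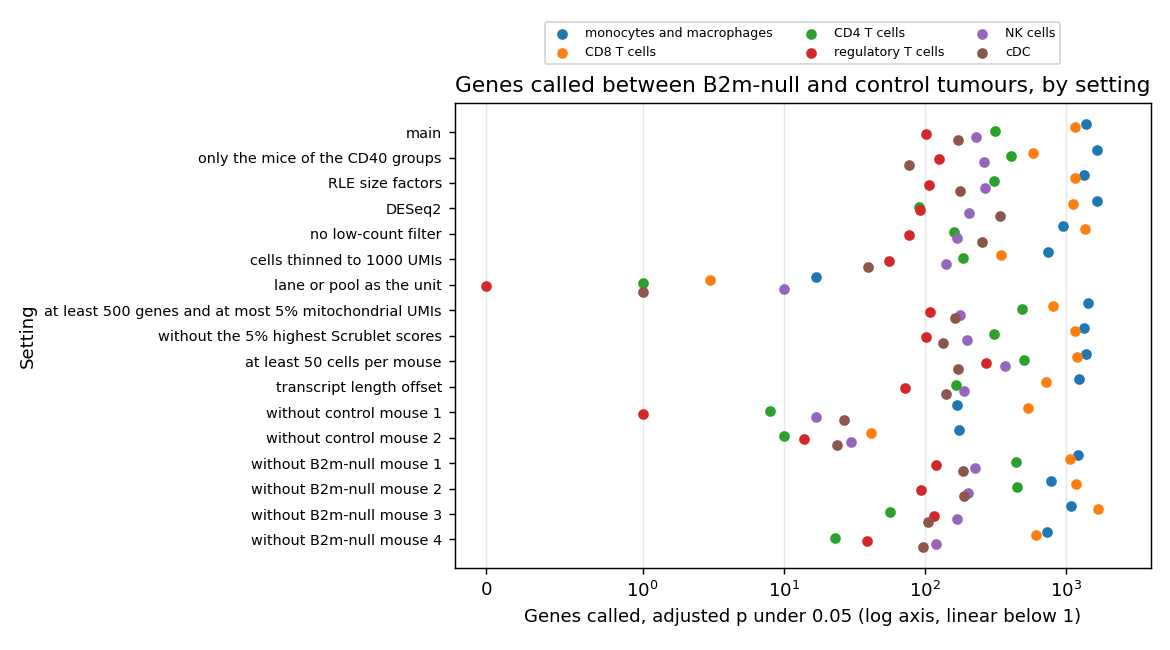
The number of genes called between B2m-null and control tumours under CD40 (x axis, log axis, linear below 1) is shown for each of 6 cell sets (colours) under each setting of the analysis (y axis), with the reported analysis as "main". The counts were 0 to 17 genes with the pool as the unit, 1 to 541 without a control mouse and 40 to 749 with cells thinned to 1000 UMIs.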

How the data were processed

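Tumour CD45-selected cells of mice with control or B2m-null B16 tumours were measured by droplet 3' RNA sequencing with hashtags. The deposited matrices hold UMI counts per gene and barcode, which the authors made with Cell Ranger 3.0.0 (bcl2fastq 2.20.0.422, mm10), per the submitters' processing notes. Barcodes were kept from 200 detected genes up, unless over 10% of their UMIs were mitochondrial. A hashtag mixture model (at least 20 hashtag counts, posterior 0.9) gave the mouse and removed hashtag doublets. Cells were clustered with scanpy 1.11.5 (2000 variable genes, 40 principal components, 20 neighbours, Leiden resolution 1) and named from fixed marker lists. Mixed clusters stayed unnamed.

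Counts were summed per mouse and cell set (at least 20 cells), and edgeR 4.0.16 (TMM, filterByExpr, robust quasi-likelihood fit of all 4 groups, R 4.3.3) tested B2m-null minus control under CD40 and its interaction with treatment, adjusted by Benjamini-Hochberg over all genes tested. Class shares were compared by two-sided exact permutation tests. Named genes were the 8 largest rises and 8 largest falls per set among calls without overlap, at least 20 CPM in the higher group, leaving out gene models, mitochondrial and ribosomal protein genes, with up to 4 called genes per list, the 4 lowest adjusted p per set and fixed anchor genes. The text prints part of them. The members and lists were chosen with earlier results of these data known. The scripts' tests were tested on simulated data. Alternatives were size factors, DESeq2 1.42.0, filters, thinning to 1000 UMIs, the pool as the unit, Scrublet scores, clustering resolution and leaving out each mouse or lane.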

Additional observations from a re-analysis of the deposited data

Results flagged for a closer look

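Of 136 groups of 4 B2m-null mice, 5 had an outlying mouse by Dixon's ratio of gap to range, and chance gives about 1 in 20 such groups. The ratio was 0.959 for Slpi, 0.861 for Slfn4 and 0.834 for Hp in monocytes and macrophages, 0.932 for Spry2 in CD8 T cells and 0.861 for Hspa1b in NK cells.

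For 61 of the named genes, in 69 pairs of a gene and a cell set, the difference between genotypes under CD40 differed from that under isotype by edgeR's interaction test (Benjamini-Hochberg adjusted p under 0.05). The values are log2 differences of the 2 differences, CD40 minus isotype, and each uses the 1 control CD40 pool. Their sign says which signed difference was higher, not which was larger in size. In monocytes and macrophages the value was positive for Ass1 (3.01), Cxcl10 (2.44), Slfn4 (2.40), Slpi (2.33), Traf1 (1.96), Mcemp1 (1.91), Hp (1.87), Cd86 (1.71), Clec5a (1.63), Ccl2 (1.54), Ccl12 (1.54), Ccnb2 (1.45), Cd14 (1.30), Fcgr1 (1.20), Cdk1 (1.04) and Calr (0.79). It was negative for Smim27 (-2.19), Wfdc17 (-2.15), Cd5l (-2.01), Hspa1b (-1.95), Mylip (-1.81), Hcst (-1.59), Cxcr4 (-1.44), Phlda3 (-1.30), Ctsd (-1.21), Abcg1 (-0.93), Tnfaip2 (-0.93) and Ctsb (-0.72).

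In CD8 T cells it was positive for Prdx4 (2.50), Cdkn3 (2.21), Tyms (2.19), Prim1 (2.06), Hist1h1b (1.82), Ska1 (1.79), Ccnb2 (1.75), Isg15 (1.73), Gins2 (1.66), Psmb8 (1.59), Isg20 (1.48), Aldoa (1.21), Gapdh (1.11), Batf (1.00) and Zbp1 (0.88), and negative for S1pr1 (-2.01), Nr4a3 (-1.13) and Nr4a1 (-1.06). In CD4 T cells it was positive for Rnh1 (3.22). In regulatory T cells the values were 3.80 for Trappc1, which had 3 counts over both control CD40 mice, 2.50 for Tyms, 1.50 for Hilpda, 1.23 for Capg and 1.17 for Tnfrsf4. In NK cells they were 1.55 for Bcl2a1b, 1.28 for Psmb8, 0.94 for Irf8, -1.14 for Spry2 and -1.73 for Scd2. In cDC they were 2.77 for Isg15, 1.90 for Ass1, 1.64 for Cd86, 1.35 for Ms4a4c, 1.30 for Ms4a6d, 1.28 for Psmb10, 0.89 for Ldha, 0.78 for Ifi30, -1.21 for Dnajb1, -1.62 for Cxcr4, -4.79 for Hspa1a and -6.34 for Hspa1b.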

How the results depend on the processing

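Calls rest on the 2 control mice. Leaving out each mouse or lane in turn moved the number of genes called from 1389 to between 171 and 1756 in monocytes and macrophages, from 1173 to between 42 and 1999 in CD8 T cells, from 314 to between 8 and 766 in CD4 T cells, from 103 to between 1 and 168 in regulatory T cells, from 230 to between 17 and 271 in NK cells, and from 173 to between 24 and 398 in cDC. Without control mouse 1 the 6 sets, in this order, had 171, 541, 8, 1, 17 and 27 calls, and without control mouse 2 they had 176, 42, 10, 14, 30 and 24. The lone remaining control mouse is assumed there to vary like the other groups. Counts also moved by over 1.5 times without B2m-null mouse 2 (790 in monocytes and macrophages), B2m-null mouse 3 (57 in CD4 T cells, 105 in cDC) and B2m-null mouse 4 (741 in monocytes and macrophages, 620 in CD8, 23 in CD4 and 39 in regulatory T cells, 120 in NK cells, 97 in cDC). The same held without B2m-null lane 1 (674 in monocytes and macrophages, 766 in CD4 and 168 in regulatory T cells, 398 in cDC), B2m-null lane 2 (836 in monocytes and macrophages, 1999 in CD8 and 60 in CD4 T cells, 111 in NK cells), control lane 1 (191 in CD4 T cells) and control lane 2 (780 in monocytes and macrophages, 149 in CD4 and 48 in regulatory T cells, 100 in NK cells, 48 in cDC). With the pool as the unit the counts were 17, 3, 1, 0, 10 and 1, and with cells thinned to 1000 UMIs 749, 348, 187, 56, 143 and 40, where fewer counts were tested. Thinning took the called interactions to 1382 in monocytes and macrophages, 306 in CD8 and 54 in regulatory T cells, 99 in NK cells and 130 in cDC. Monocytes alone gave 637 calls. With the mice of the CD40 groups alone, 586 genes were called in CD8 T cells and 77 in cDC, and the share called higher in monocytes and macrophages went from 42.7% to 56.9%. DESeq2 called 91 genes in CD4 T cells and 342 in cDC. The length offset, added after seeing the data, left 728 calls in CD8 and 166 in CD4 T cells, and no filter on low counts left 162 in CD4 T cells. At least 50 cells per mouse gave 508 calls in CD4 T, 272 in regulatory T and 371 in NK cells, and stricter barcode limits 491 in CD4 T cells. The cause was not tested. Without B2m-null mouse 1 the differences in shares were -7.9 points for CD8 T cells and 7.22 points for monocytes and macrophages, and Leiden resolution 2 gave 20.1 points for the latter. Clusters led by Rnf128 and by Cxcl3 were unnamed at that resolution and so outside the class. Differences in shares turned sign for CD4 T cells without B2m-null mouse 3 (-0.0698 points, with -0.0698 to 2.86 over all mice left out) and for NK cells without control mouse 1 (1.21 points, with -2.27 to 1.21 over all mice left out) or by lane over all cells (0.0625 points). Of 2399 values of named genes under the alternatives, 1782 kept their direction and their side of the threshold, 610 kept the direction but lost the call, 7 gained one and 0 changed direction. The named genes were drawn largely from calls without overlap, and the alternatives reuse the same mice. The lack of a change in direction thus comes with that choice and is no separate support. No paired analysis was possible because the numbers of the control CD40 samples are technical lanes of 1 pool.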
